A study of Mus musculus with 6 samples.

Results

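Probe sets of the immunoglobulin chains were read on microarrays of whole mouse lung. Immunoglobulins are the antibodies made by B cells and plasma cells. The members were every probe set whose annotated symbols were all immunoglobulin heavy, kappa or lambda chain genes or segments, together with Jchain, and they came to 29 of the 24173 probe sets in the table. By their symbols 14 were heavy chain, 12 kappa chain and 1 lambda chain, 1 carried both heavy and kappa symbols, and 1 was Jchain. Of these, 24 had a single symbol and 5 had several. The symbols decide membership without a measured value, but the family itself was chosen on its log2 difference between the groups, since its lower signal on the arrays labelled Falcor-null was already known. The differences between the groups are therefore given as a description, and no test is read for them.

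The study compared lung of mice null for Falcor, a long non-coding RNA gene beside the transcription factor gene Foxa2, with wild-type lung, all after the airway toxicant naphthalene and all of a mixed strain labelled CD1_C57Bl6_mix. There were 2 groups of 3 arrays, and by their labels the wild-type lungs were taken 28, 29 and 30 days and those labelled Falcor-null 31, 32 and 33 days after the injury. If these days are right, day and genotype cannot be told apart. They rise by 1 from each label to the next, and whether they are the true days or were filled in is not known. No uninjured lung was analysed here. The animals' age, and whether each sample came from a separate animal, are not given in the sources used here. The spread between these samples may therefore be technical. The Falcor probe set (9030622O22Rik, 17392549) read 5.05 ± 0.38 on wild type and 6.49 ± 0.28 in the group labelled Falcor-null (SD, n = 3 each), higher and not lower. No source used here says whether its probes read a stretch that the null allele lacks. It therefore does not check the labels, and every direction below is that of the arrays so labelled. Median signal per array was 6.69 to 6.74, and precision is limited by how few arrays there were. As a check of the tissue, the alveolar surfactant gene Sftpb and the club cell gene Scgb1a1 read 13.11 to 13.31 and 13.55 to 13.63 over the 6 arrays. These lie close to the highest value in the table (13.9), so they show that lung RNA was present and not whether its amount changed.

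An antibody is built of paired heavy and light chains. A B cell joins a variable segment to a joining segment, with a diversity segment between them in the heavy chain, and the result is spliced to a constant region that sets the class, such as M, G or A. Mouse light chains are mostly kappa and less often lambda. Resting B cells carry immunoglobulin M on their surface, whereas plasma cells make the secreted forms in bulk. In the airway, antibody polymers held together by the joining chain are carried across the epithelium by the receptor Pigr.

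All 29 probe sets were lower on the arrays labelled Falcor-null than on wild type. The median log2 difference was -2.20, or 4.59-fold lower, and the members ran from 1.80-fold to 20.8-fold lower. Over all 24173 probe sets the median difference was 0.01, and 11597 of them (48.0%) were lower. In 25 of the 29 the groups did not overlap, where 9.85% of all probe sets lay lower without overlap. The limma model fitted to the whole table called 18 of the 29 lower at a Benjamini-Hochberg adjusted p under 0.05, against 0.645% of all probe sets, and called none of them higher, against 0.0621% of all. Since the family was picked with this contrast known, nothing is read from that count. In bulk tissue, fewer cells of a type and less RNA per cell cannot be told apart.

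**Figure D1:**
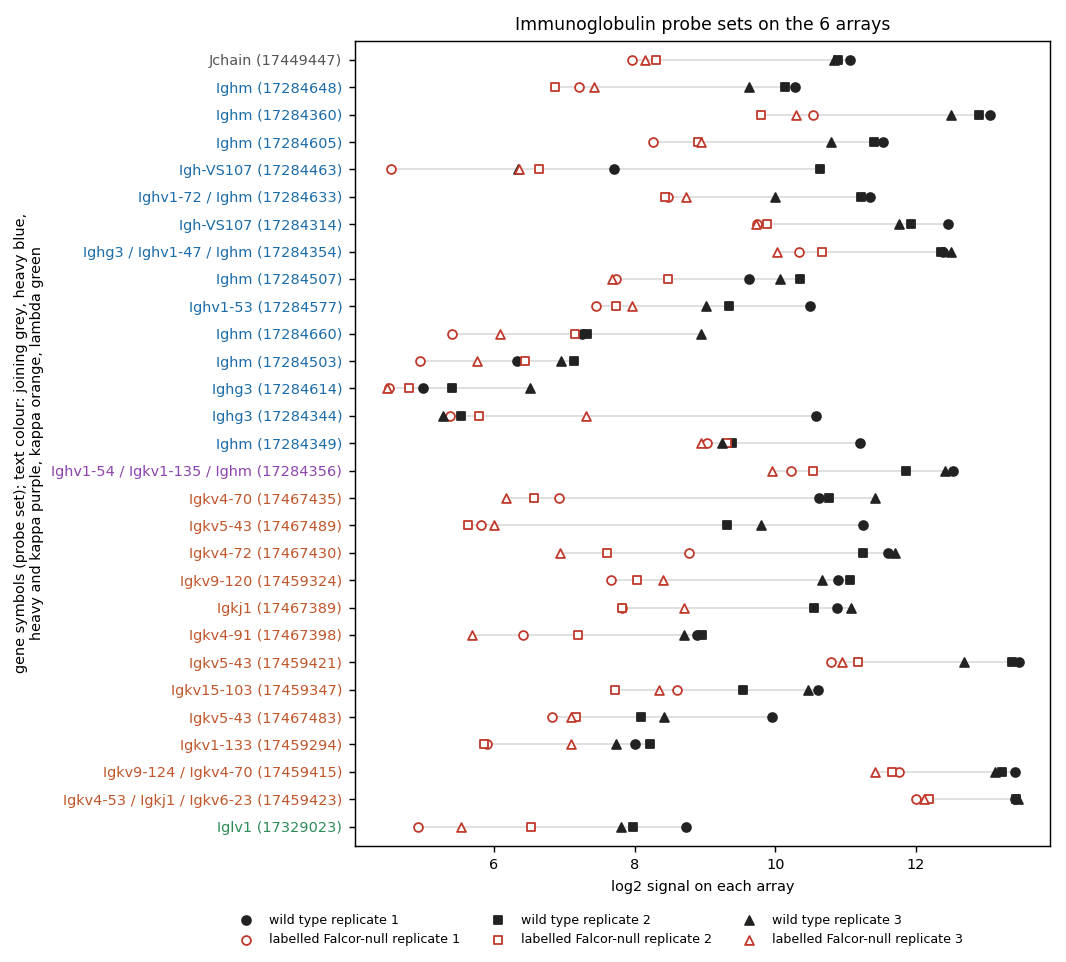
The log2 signal (horizontal axis) of each of the 29 immunoglobulin probe sets (rows) on the 6 arrays, with wild type as filled black and labelled Falcor-null as open red symbols and the replicate number given by the shape. In 25 rows all red symbols lie left of all black ones, and the 4 rows with overlap are all heavy chain probe sets.

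The gene names stand for few of the segments of these loci. RefSeq (assembly GRCm38.p6) places the heavy chain genes on chromosome 12, the kappa genes on chromosome 6, the lambda genes on chromosome 16 and Jchain on chromosome 5, and 20 of the 21 gene numbers of the members were found there. The members named 4 of its 120 heavy variable segments, 11 of 102 kappa variable segments, 1 of 3 lambda variable segments, 1 of 5 kappa joining segments and, of 8 heavy constant regions, those of Ighm and Ighg3. The constant regions of immunoglobulin A, D and E and of the light chains named no member and were not analysed here. The annotation did not say which part of a gene a probe set reads, and several probe sets carried the symbol Ighm together with a variable segment. Segments of a locus resemble one another, so signal cannot be given to a single segment with certainty.

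Jchain, whose protein joins units of secreted immunoglobulin A and M, is a separate gene that is not rearranged, and it was read by a single probe set (17449447). Its upstream sequence, taken from RefSeq, is shown because this gene was lower together with the rearranged chains, whose own upstream sequences are not given. The 250 bases before its start are given below 5′ to 3′ on the strand of the gene (GRCm38.p6, chr5:88527898-88528147, minus strand). Capitals mark the matches to GGAA, the core bound by factors of the ETS family, on either strand.
Jchain promoter: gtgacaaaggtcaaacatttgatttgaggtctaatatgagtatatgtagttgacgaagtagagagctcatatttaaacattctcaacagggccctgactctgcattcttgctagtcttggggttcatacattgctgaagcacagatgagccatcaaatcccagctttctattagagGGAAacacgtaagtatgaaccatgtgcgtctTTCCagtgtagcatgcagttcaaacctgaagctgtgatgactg
The core GGAA stood 74 bases before the start on the strand of the gene, and its reverse complement began 43 bases before it. At least 1 match on either strand was present in 93.4% of all 32851 upstream sequences of the same length, so this is a common word. The octamer ATGCAAAT, which promoters of immunoglobulin variable segments are known to carry, was not found on either strand of this window, and 1.6% of all upstream sequences held it. The window held 3 matches to the E box CANNTG, present in 66.2% of all, and none to TATAAA, present in 12.4%. None of the E box matches overlapped a GGAA match, and a match is a description and not a binding site.

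Jchain read 11.06, 10.89 and 10.83 on wild type against 7.97, 8.31 and 8.15 in the other group. The lowest wild-type array lay 2.52 above the highest of the others, more than the range of 0.23 within wild type and 0.34 within the other group. The difference was -2.78 (SE 0.11), or 6.88-fold lower, from means of 10.92 ± 0.12 and 8.14 ± 0.17 (SD, n = 3 each).

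The 7 probe sets annotated to Ighm alone, the constant region of immunoglobulin M, did not move alike. Their log2 differences ran from -0.85 to -2.85 with a median of -2.05, and 4 of them were called, 5 without overlap. The probe set 17284360 read 13.05, 12.90 and 12.50 on wild type against 10.54, 9.79 and 10.29 on the arrays labelled Falcor-null, a difference of -2.61 (SE 0.22). Probe set 17284648 went from 10.28, 10.14 and 9.63 to 7.21, 6.87 and 7.43, a difference of -2.85 (SE 0.20). In both, all wild-type arrays lay above all others. Probe sets 17284605 and 17284507 differed by -2.54 (SE 0.25) and -2.05 (SE 0.26).

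The other Ighm probe sets were not called. Probe set 17284660 differed by -1.63 (SE 0.57), its wild-type arrays reading 7.25, 7.32 and 8.94 and the others 5.40, 7.15 and 6.09. Probe set 17284503, whose mean on the arrays labelled Falcor-null (5.72) lay under the 30th percentile of mean signal over the whole table (5.73), differed by -1.09 (SE 0.38) and overlapped. Probe set 17284349 read 11.20 on wild type replicate 1 but 9.38 and 9.25 on the other wild-type arrays, against 9.03, 9.32 and 8.94 on the arrays labelled Falcor-null. Wild type replicate 2 lay just above the highest of these, and replicate 3 lay below it. Without wild type replicate 1 its difference shrank from -0.85 to -0.22.

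Ighg3, the constant region of the immunoglobulin G3 subclass, gave no call. Its probe set 17284344 read 10.57 on wild type replicate 1, 5.53 and 5.28 on the other wild-type arrays, and 5.37, 5.78 and 7.31 in the group labelled Falcor-null. A single wild-type array thus carried the difference of -0.97 (SE 1.37), which was 0.75 the other way without it. Probe set 17284614 was dim on all arrays, from 4.47 to 6.51, and differed by -1.04 (SE 0.36) without overlap. A probe set annotated jointly to Ighg3, Ighv1-47 and Ighm (17284354) behaved differently. It read 12.38, 12.35 and 12.50 on wild type and 10.34, 10.67 and 10.03 on the others, a difference of -2.07 (SE 0.16).

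The heavy variable segments had log2 differences from -1.91 to -2.38. Igh-VS107 stands for the S107 group of heavy variable segments, and its probe sets differed by similar amounts with unlike spread. Probe set 17284314 read 12.46, 11.93 and 11.75 on wild type against 9.73, 9.89 and 9.73 on the arrays labelled Falcor-null, a difference of -2.26 (SE 0.18). Probe set 17284463 read 7.71, 10.64 and 6.35 against 4.54, 6.64 and 6.36, which overlapped, with a difference of -2.38 (SE 1.08). That value was -1.18 without wild type replicate 2 and -3.33 without wild type replicate 3. Ighv1-53 (17284577) differed by -1.91 (SE 0.36) and was not called, while the probe set shared by Ighv1-72 and Ighm (17284633) differed by -2.31 (SE 0.34). The probe set with both heavy and kappa symbols, Ighv1-54, Igkv1-135 and Ighm (17284356), differed by -2.03 (SE 0.21), from 12.26 ± 0.36 to 10.23 ± 0.29 (SD, n = 3 each).

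Over the 14 heavy chain probe sets the median difference was -2.06, or 4.17-fold lower, with 7 called and 10 without overlap. The median signal of these probe sets on each array was 10.53, 10.25 and 9.44 on wild type against 7.59, 8.08 and 7.82 on the arrays labelled Falcor-null. Wild type replicate 3 was the lowest wild-type array in 9 of the 14 and replicate 1 the highest in 8.

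Kappa chain probe sets held the largest differences of the family. All 12 kept the groups apart and 9 were called, with a median difference of -2.30, or 4.94-fold lower. The median signal over them was 10.88, 10.65 and 10.86 on wild type against 7.74, 7.66 and 7.72 on the arrays labelled Falcor-null, so these array medians lay closer together within a group than those of the heavy chain. Probe set by probe set this held on wild type, where the median SD was 0.25 for kappa and 0.58 for heavy, but not on the arrays labelled Falcor-null, where it was 0.37 and 0.35.

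The probe set of Igkv4-70 alone (17467435) read 10.62, 10.76 and 11.41 on wild type against 6.93, 6.57 and 6.17 on the arrays labelled Falcor-null. The difference of -4.38 (SE 0.26), or 20.8-fold, was the widest among the members. Igkv4-72 (17467430) read 11.59, 11.25 and 11.69 against 8.78, 7.60 and 6.93, a difference of -3.74 (SE 0.42). Its wild-type arrays lay close together, whereas those labelled Falcor-null spread over 1.85 log2 units. Another segment of the same family, Igkv4-91 (17467398), differed by -2.41 (SE 0.34) and also spread more on the arrays labelled Falcor-null, with an SD of 0.75 against 0.13.

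Igkv5-43 was read by 3 probe sets, which differed by -4.30, -2.20 and -1.79. Probe set 17467489 read 11.25, 9.31 and 9.80 on wild type and 5.81, 5.63 and 6.01 on the others (SE 0.45). Probe set 17459421 read 13.46, 13.36 and 12.68 against 10.78, 11.17 and 10.95 (SE 0.21). The third, 17467483, read 9.95 on wild type replicate 1 but 8.08 and 8.42 on the other wild-type arrays, against 6.82, 7.16 and 7.09, and was not called (SE 0.45). Wild type replicate 1 was the highest array in all 3 of these probe sets. They carry the same symbol and were read on the same arrays, so they are not taken as independent of one another.

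The kappa joining segment Igkj1 (17467389), shared by many rearranged kappa chains, read 10.87, 10.54 and 11.07 on wild type against 7.82, 7.83 and 8.71 on the arrays labelled Falcor-null, a difference of -2.71 (SE 0.26). Igkv9-120 (17459324) differed by -2.84 (SE 0.20), from 10.88, 11.06 and 10.66 to 7.66, 8.03 and 8.40. In both, all wild-type arrays lay above all others by at least 1.83 log2 units. Igkv15-103 (17459347) differed by -1.98 (SE 0.33) and Igkv1-133 (17459294) by -1.70 (SE 0.33), with no overlap and no call.

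The smallest kappa differences stood in the probe sets with several symbols. The probe set of Igkv4-53, Igkj1 and Igkv6-23 (17459423) read 13.41, 13.42 and 13.44 on wild type and 11.99, 12.18 and 12.11 on the others, a difference of -1.33 (SE 0.08). The probe set of Igkv9-124 and Igkv4-70 (17459415) went from 13.40, 13.22 and 13.12 to 11.75, 11.65 and 11.42, a difference of -1.64 (SE 0.12). Their spread was small in both groups. Their wild-type values approached the top of the scale (13.9), and the probe set of Igkv4-70 alone differed by much more. Igkv5-43 probe set 17459421 was also bright on wild type (13.46, 13.36 and 12.68) and differed by -2.20. Whether the top of the scale narrowed any of these differences was not tested.

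Iglv1 (17329023), a variable segment of the lambda chain, read 8.73, 7.97 and 7.81 on wild type against 4.93, 6.53 and 5.54 on the arrays labelled Falcor-null. The groups did not overlap, and the difference of -2.51 (SE 0.42), or 5.69-fold, was not called. It was the only lambda probe set among the members. Its mean on the arrays labelled Falcor-null (5.66) lay under the 30th percentile of mean signal over the whole table (5.73).

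**Figure D2:**
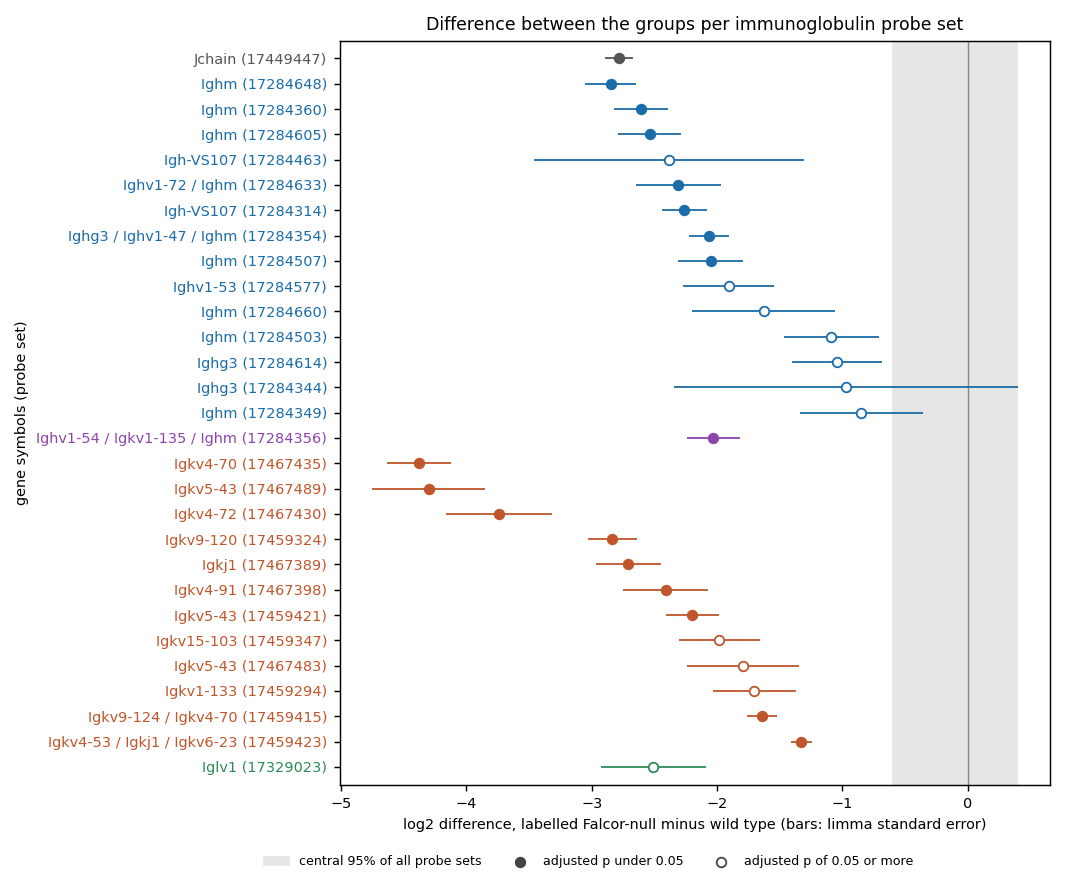
The log2 difference between the arrays labelled Falcor-null and wild type (horizontal axis) for each probe set (rows, coloured by chain), with limma standard errors as bars, filled points for an adjusted p under 0.05 and the central 95% of all 24173 probe sets (-0.59 to 0.40) in grey. All 29 points lie left of the grey band, from -0.85 for an Ighm probe set to -4.38 for Igkv4-70.

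Within a group the members spread more than most probe sets. The median SD was 0.39 on wild type and 0.37 on the arrays labelled Falcor-null, against 0.12 for each group over all 24173 probe sets, and 26 of the 29 lay above the overall median on wild type and 27 on the arrays labelled Falcor-null. This measure does not use the difference between the groups. The widest spread on wild type was that of Ighg3 probe set 17284344 (SD 2.99), followed by Igh-VS107 probe set 17284463 (SD 2.19), which was also the widest on the arrays labelled Falcor-null (SD 1.14). Wild type replicate 1 was the highest wild-type array in 16 of the 29 and replicate 3 the lowest in 16. Among the arrays labelled Falcor-null replicate 2 was the highest in 15 and replicate 1 the lowest in 13. Across the 29 the Pearson correlation between mean signal over the 6 arrays and difference was -0.11 and the Spearman correlation -0.18, a description of probe sets that share arrays.

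**Figure D3:**
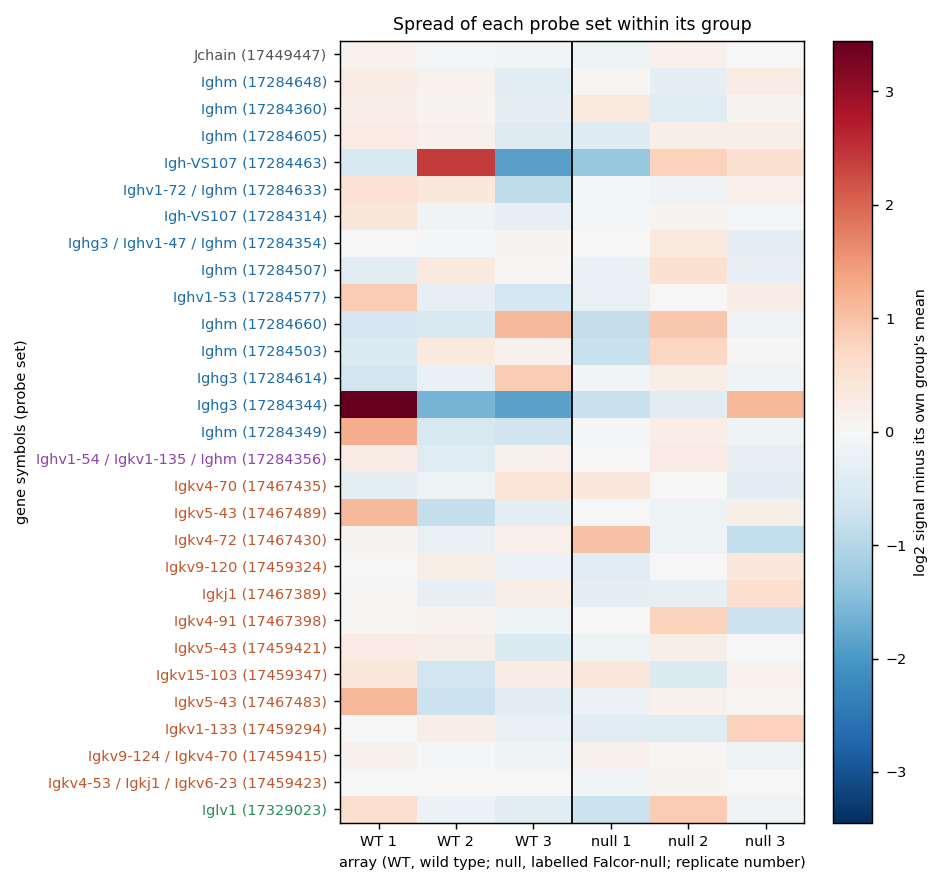
The log2 signal of each probe set (rows) on each array (columns) minus the mean of its own group, in colour from blue (lower) to red (higher). The strongest colours are wild type replicate 1 in Ighg3 probe set 17284344 and wild type replicate 2 in Igh-VS107 probe set 17284463, and Jchain and the kappa probe sets with several symbols are nearly white.

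Of the 18 called members 10 stayed called under each omission of an array, namely Jchain, Igh-VS107 (17284314), the probe set of Ighg3, Ighv1-47 and Ighm (17284354), Ighm (17284360 and 17284648), Igkv4-70 (17467435), Igkv9-120 (17459324), Igkj1 (17467389) and both kappa probe sets with several symbols. The number called was 17, 14 and 16 without wild type replicate 1, 2 and 3 and 13, 16 and 14 without replicate 1, 2 and 3 of the arrays labelled Falcor-null. Since the family was chosen on this same contrast, staying called is no test of a member. These calls only describe how much single arrays weighed.

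The other 8 lost their call with at least 1 array left out, while their differences changed little. Igkv5-43 probe set 17459421 lost it without Falcor-null replicate 3 (-2.19) and Ighm probe set 17284605 without wild type replicate 2 (-2.46). The probe set of Ighv1-54, Igkv1-135 and Ighm lost it without Falcor-null replicate 1 (-2.03) or 3 (-1.89). Igkv4-72 lost it without wild type replicate 1 (-3.70) or 2 (-3.87) or Falcor-null replicate 2 (-3.66), and Igkv5-43 probe set 17467489 without Falcor-null replicate 1 (-4.30), 2 (-4.21) or 3 (-4.40). Ighm probe set 17284507 kept it only without wild type replicate 1 or Falcor-null replicate 2, and lay at -1.88, -2.03, -1.94 and -1.91 without wild type replicate 2 and 3 and Falcor-null replicate 1 and 3. Igkv4-91 kept it only without Falcor-null replicate 2 or 3, and lay at -2.39, -2.36 and -2.48 without wild type replicates 1, 2 and 3 and at -2.40 without Falcor-null replicate 1. The probe set of Ighv1-72 and Ighm kept it only without wild type replicate 3, and its other differences ran from -2.06 without wild type replicate 1 to -2.40 without Falcor-null replicate 3, with -2.13 without wild type replicate 2 and, without Falcor-null replicates 1 and 2, -2.27 and -2.25. In turn, 5 members not called with all arrays were called with 1 left out. They were Ighv1-53 (-1.47) and Igkv5-43 probe set 17467483 (-1.23) without wild type replicate 1, Igkv15-103 (-2.31) without wild type replicate 2, Iglv1 (-2.94) without Falcor-null replicate 2 and Igkv1-133 (-2.10) without Falcor-null replicate 3.

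Most genes listed for the cells that make immunoglobulin were lower as well, by smaller amounts. Like the members, these gene lists were chosen with earlier results of these data known. Their adjusted p-values and calls are therefore given as a description. Of 20 plasma cell genes 17 were lower, with a median log2 difference of -0.40, and 3 were called lower in limma. These were Pou2af1, a coactivator of octamer factors on immunoglobulin promoters (1.77-fold lower, adjusted p 0.0115), Mzb1, a chaperone for immunoglobulin assembly (1.80-fold lower, adjusted p 0.0136), and Irf4, a transcription factor of plasma cells (1.83-fold lower, adjusted p 0.0164). Mzb1 read 7.36, 7.37 and 7.19 on wild type against 6.51, 6.36 and 6.51 on the arrays labelled Falcor-null, without overlap. Fkbp11, a folding helper of secretory cells, differed by -0.66 (adjusted p 0.0537), and the secretory regulator Xbp1, which many lung cells also express, by -0.39 (adjusted p 0.262). Prdm1 differed by -0.21 (adjusted p 0.462). Ell2, Ly6k and Sdc1 were the 3 that were higher, at 0.21, 0.06 and 0.05 (adjusted p 0.429, 0.805 and 0.912). The summed signal of this list was 12.77 to 13.00 on wild type and 12.47 to 12.64 on the arrays labelled Falcor-null. The brightest genes weigh most in this sum, here Herpud1 and Xbp1 with means of 10.51 and 9.83 over the 6 arrays.

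All 18 measured genes of mature B cells were lower, with a median of -0.43, and 4 were called lower. Spib, an ETS family factor of B cells, was 2.51-fold lower (adjusted p 0.0225), the tetraspanin Cd37 1.67-fold (adjusted p 0.0167), the receptor component Cd79a 1.68-fold (adjusted p 0.0274) and Tnfrsf13b, a receptor for B cell survival factors, 1.66-fold (adjusted p 0.0274). Cd79b differed by -0.41 (adjusted p 0.17) and was not called. Pax5 and Ebf1 differed by little, at -0.13 and -0.08 (adjusted p 0.727 and 0.839). The summed signal of the list was 11.01 to 11.14 on wild type and 10.43 to 10.61 on the arrays labelled Falcor-null, and 5 of the 18 genes lay below the 30th percentile of mean signal. Spib and Tnfrsf13b, with means of 5.02 and 4.79, were among these 5, so the fit without dim probe sets left them out. T cell genes were lower too. All 12 measured lay below 0 with a median of -0.54, and 3 were called lower. These were the receptor components Cd3e (2.30-fold, adjusted p 0.00823) and Cd3g (2.22-fold, adjusted p 0.0311) and the coreceptor Cd4 (2.34-fold, adjusted p 0.0125). The receptor component Cd3d differed by -0.48 (adjusted p 0.249) and was not called. Nor were the coreceptor chains Cd8b1 and Cd8a, at -0.35 and -0.42 (adjusted p 0.269 and 0.541). The summed signal of the T cell list was 10.98 to 11.10 on wild type and 10.06 to 10.31 on the arrays labelled Falcor-null. The part of these cell type markers in the immunoglobulin differences was not tested.

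Among 7 measured genes of lymphoid stroma and follicles, all lower with a median of -0.27, Cxcl13 was called lower. This chemokine draws B cells into follicles, and it read 9.40, 9.90 and 9.50 on wild type against 7.85, 8.05 and 8.28 on the arrays labelled Falcor-null (2.91-fold lower, adjusted p 0.0136). Ltb, a cytokine of lymphoid tissue, differed by -0.45 (adjusted p 0.18) and the follicular homing receptor Cxcr5 by -0.26 (adjusted p 0.331). None of 5 measured germinal centre genes passed, their median being -0.22, with Bcl6 at -0.26 (adjusted p 0.293) and Gcsam at -0.51 (adjusted p 0.297). Of 10 listed genes of B cell progenitors 5 were measured. None of the measured genes passed either, and their median of 0.06 was the value of Erg. So few genes cannot show whether progenitors changed. The widest difference was that of Il7r, a cytokine receptor chain of lymphoid progenitors that is also in the T cell list. It read 8.72, 9.12 and 8.75 on wild type and 7.45, 7.44 and 8.09 in the other group, without overlap and 2.31-fold lower (adjusted p 0.0633). It was called with an intensity trend (adjusted p 0.0475) and without Falcor-null replicate 3 (adjusted p 0.0300), and with any other array left out its adjusted p was 0.121 to 0.209. The surrogate light chain genes Vpreb3 and Vpreb2 lay at -0.16 (adjusted p 0.738) and 0.12 (adjusted p 0.75). At an unadjusted p under 0.05, limma passed 2 of the germinal centre genes and 1 of the progenitor genes. The share of all probe sets under this unadjusted threshold is not given here. Nothing is therefore read from such counts, in these lists or in those below.

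Receptors that carry or bind immunoglobulin gave no call among 10 measured, 8 of them lower, with a median of -0.63 and 5 at an unadjusted p under 0.05. Pigr read 10.07, 10.53 and 10.17 on wild type against 8.08, 8.49 and 9.52 on the arrays labelled Falcor-null, without overlap and 2.95-fold lower (adjusted p 0.138). The inhibitory receptor Fcgr2b differed by -0.84 (adjusted p 0.177), while Fcgrt, which protects immunoglobulin G from breakdown, differed by 0.03 (adjusted p 0.903). Without Falcor-null replicate 3 Pigr was called, with a difference of -1.97. Over the 8 lung tissue genes the median was 0.08 and none passed, with 2 at an unadjusted p under 0.05. Sftpb, Scgb1a1 and Sftpc, with means of 13.22, 13.59 and 13.60, lay near the top of the scale. This median therefore cannot show that lung genes stayed unchanged. Foxa2, the neighbour of Falcor, read 7.85, 7.89 and 7.84 on wild type and 8.19, 8.15 and 8.05 in the other group, a difference of 0.27 (adjusted p 0.222). The alveolar gene Ager differed by 0.24 (adjusted p 0.334) and the endothelial genes Pecam1 and Cdh5 by 0.13 (adjusted p 0.512) and 0.11 (adjusted p 0.575). In these 4 genes the groups did not overlap. Over all 24173 probe sets the groups overlapped in 19661, which leaves separation in both directions together. The share that lay higher without overlap, as these 4 genes did, is not given here. Nothing is therefore read from their separation. In the blood list only Slc4a1 was measured, at 0.31.

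The distinct genes of these lists that were called came to 11 in all, and single arrays decided many of them. They were 3 of 20 plasma cell, 4 of 18 mature B cell, 3 of 12 T cell and 1 of 7 stromal genes, all lower. Of all probe sets 0.645% were called lower. Since the lists were chosen with earlier results known, nothing is read from this count. Leaving out wild type replicate 1, 2 or 3 gave 6, 2 and 13, of 98, 65 and 188 calls over all probe sets. For Falcor-null replicate 1, 2 or 3 the number was 4, 4 and 5, of 79, 102 and 67 calls. Of the genes named, Cd3e stayed called whichever array was left out.

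**Figure D4:**
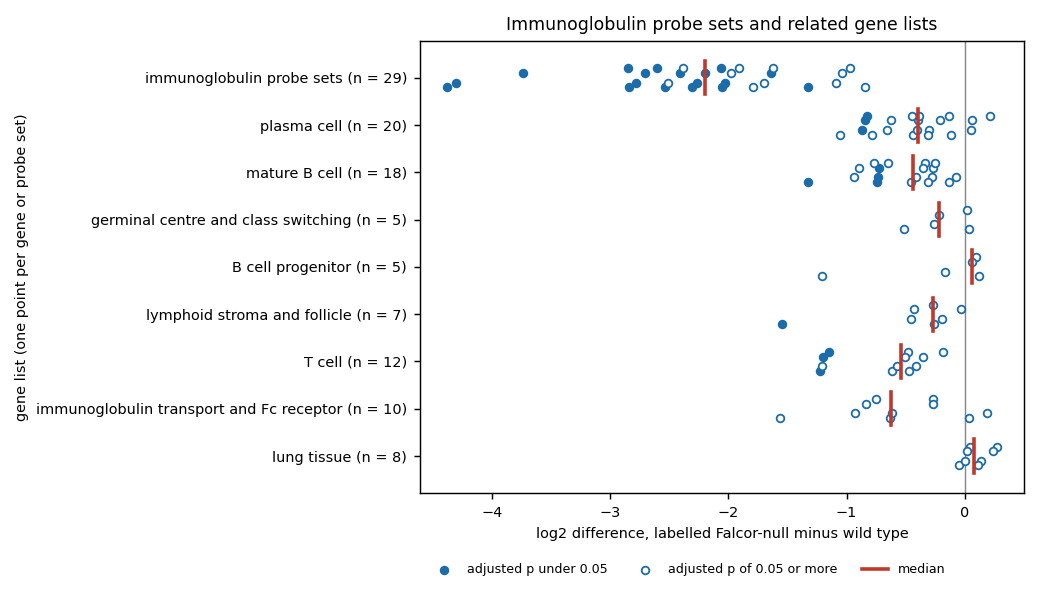
The log2 difference (horizontal axis) of each immunoglobulin probe set and of each measured gene of 8 lists (rows), with filled points for an adjusted p under 0.05 and a red bar at the median. The immunoglobulin median lies at -2.20, those of plasma cell, mature B cell and T cell genes at -0.40, -0.43 and -0.54, and that of lung tissue genes at 0.08. The lung list includes genes near the top of the scale.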

How the data were processed

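The table deposited by the authors holds a log2 signal for each probe set on each array. Per the submitters' processing notes the tools were oligo, RMA and limma, with no versions given, and the labels' protocols describe total RNA amplified by in vitro transcription and labelled with biotin. RMA includes background correction, quantile normalization between arrays and a summary over the probes of a set. A shift shared by most genes would thus be lost, and differences at either end of the scale shrink. Row filters and the genome build of the array annotation are not given in the sources used here.

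Groups came from the sample titles, whose numbers are not said to pair samples. Symbols came from the platform annotation, where 17476 probe sets had 1 symbol, 1308 several and 5389 none. All 24173 probe sets entered a linear model per probe set without covariates (limma 3.58.1 under R 4.3.3, with lmFit followed by eBayes). Its two-sided p-values were adjusted over the whole table by the Benjamini-Hochberg method, with calls made below 0.05. For 3 arrays a group, the smallest p of an exact permutation test is 0.1. Gene lists used the brightest probe set of a gene with 1 symbol, and their summed signal is the log2 of the summed linear signals. Named genes were Jchain, the constant regions, the probe sets with the widest and narrowest differences and highest signal in each chain, and up to 4 list genes with the smallest p. Genes named outside that rule (Xbp1, Herpud1, Prdm1, Ell2, Ly6k, Sdc1, Cd79b, Pax5, Ebf1, Cd3d, Cd8a, Cd8b1, Erg, Fcgrt, Sftpb, Sftpc and Scgb1a1) were chosen after their values were seen. The members and lists were chosen with earlier results of these data known. The fit was tested on simulated data. Plots used matplotlib 3.10.9 and Python 3.11.15.

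Alternatives were the replicate block, 2 scalings, an intensity trend, robust variance, array weights, a filter on dim probe sets (under the 30th percentile), 1-symbol probe sets, other thresholds, averaging probe sets of a symbol and leaving out each array.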

Additional observations from a re-analysis of the deposited data

How the results depend on the processing

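All 29 members stayed lower with both scalings and with array weights. The replicate block, intensity trend and robust variance change only the standard errors here. The differences were therefore the same by construction, and only calls could change. The median differences of heavy and lambda chains and that of Jchain moved by less than their own spread between arrays in every alternative run. This spread, the SD of array medians within groups, was 0.44 for heavy, 0.67 for lambda and 0.15 for Jchain, but 0.09 for kappa. With 1 array left out the heavy median ran from -2.24 to -1.85 and the lambda value from -2.94 to -2.14. The kappa median was -2.56 with 1-symbol probe sets or with probe sets of a symbol averaged, and -2.46 to -2.15 with 1 array left out. The number of members called was 9 at an adjusted p under 0.01, and 13 to 17 with 1 array left out. Of all probe sets 171 were called, 298 at an adjusted p under 0.1, 36 at 0.01, 85 with 1-symbol probe sets and 65 to 188 with 1 array left out. List genes called ranged from 2 to 13 with 1 array left out, a count added after seeing the data. The replicate block gave 88 calls over all probe sets, 16 members and 3 list genes. The titles do not say that equal numbers pair samples. Same-numbered arrays had correlations of deviations from -0.037 to 0.011, and 2 of the 6 arrays correlated best with their own number. With so few arrays, each centred on its own group, these correlations cannot exclude a pairing. Leaving out 1 array was run gene by gene for the members and for the 4 genes with the smallest p in each list. Among these the sign turned for 4 differences, none of them called, and other list genes near 0 were not followed. Ighg3 probe set 17284344 ranged from -1.90 to 0.75 (the latter without wild type replicate 1), Vpreb2 from -0.015 (without wild type replicate 1) to 0.20, S1pr2 from -0.074 (without Falcor-null replicate 1) to 0.11 and Cd93 from -0.037 (without Falcor-null replicate 2) to 0.22. Fits with 1-symbol probe sets or 1 array fewer held fewer probe sets or samples; otherwise the cause was not tested. No detection calls were used here, so it is not known how far dim probe sets stood above background.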

Other observations

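Most of the strongest falls in the table had no gene name here. Of the 107 probe sets over 4-fold lower on the arrays labelled Falcor-null, 18 were immunoglobulin members, 86 had no symbol in the platform annotation and 3 had another single symbol. Of the 156 called lower in limma, 18 were members, 77 had no symbol, 59 had another single symbol and 2 had several symbols. In all, 5389 of the 24173 probe sets had no symbol. What the unnamed probe sets read was not tested.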
